A study of Mus musculus with 12 samples.

Results

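The adhesion G protein-coupled receptors (aGPCRs) are described here across sorted Schwann cells (SCs) of the mouse sciatic nerve. Members were taken by name, as the protein-coding genes whose mouse symbol starts with Adgr or is Celsr1, Celsr2 or Celsr3. The rule used no measured value and found 30 members among the 25700 genes listed in the count table. They fall into 9 subfamilies, with 3 members each in A, B, C (the Celsr genes) and E, 5 in F, 7 in G, 4 in L and 1 each in D and V. SCs were collected at postnatal day 5 from mice that carried P0Cre-/+, ReYFPTg/+ and βAct-DsRedTg/+ on the C57bl/6J background, and all 3 groups shared this genotype and age. Because the reporter stays on after recombination, eYFP marks cells with a history of Cre activity. The groups are FACS gates: allSC holds all eYFP+ cells, mSC those with high side scatter, enriched for myelinating SCs, and nmSC those with low side scatter, enriched for not-myelinating SCs. Each gate has 4 Smart-Seq2 libraries, from mice of both sexes numbered 1 to 4, with 8180927 to 16918122 counts on genes per library.

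aGPCRs carry a long extracellular part that can bind matrix proteins or neighbouring cells, followed by a domain in which the receptor cleaves itself and by a membrane-spanning part that couples to G proteins. Ligand binding or mechanical pull can expose a tethered agonist peptide next to the cleavage site. In SCs, Adgrg6 (Gpr126) is the known myelination receptor of the family: it acts through Gs and cAMP and is required for SCs to pass from radial sorting to myelin formation.

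The sorted cells carried SC transcripts in every gate. The mean level of Sox10, the transcription factor of the SC lineage, was 267 CPM in allSC, 267 in mSC and 266 in nmSC. CPM are counts scaled to a common library size, here after normalisation by the trimmed mean of M values (TMM). The mSC library of mouse 4 stood apart from the other mSC libraries, since its counts differed from theirs with a chi-square per degree of freedom of 50.6 to 95.7, compared with 6.02 to 22.1 among the other mSC libraries. In these bulk libraries, fewer cells of a type and less RNA per cell cannot be told apart.

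Promoter windows are printed for the members that lead the results, namely the pair with the highest levels per length (Adgrg6 and Adgrg1), the member with the largest fold change (Adgrb2) and the most abundant Celsr gene (Celsr2). They come from RefSeq on the GRCm38.p6 build and run from 250 bases before to 50 bases after an annotated start, and 22 of the 30 members had 1 or more of them, 26 windows in all. Each is written 5′ to 3′ on the strand of its gene, and capitals mark a match, on either strand, to the SOX core ACAAAG, the EGR core GTGGGCG, the cAMP response element core TGACG or the TATA box TATAAA.
Adgrg6, chr10:14544987-14545286, minus strand: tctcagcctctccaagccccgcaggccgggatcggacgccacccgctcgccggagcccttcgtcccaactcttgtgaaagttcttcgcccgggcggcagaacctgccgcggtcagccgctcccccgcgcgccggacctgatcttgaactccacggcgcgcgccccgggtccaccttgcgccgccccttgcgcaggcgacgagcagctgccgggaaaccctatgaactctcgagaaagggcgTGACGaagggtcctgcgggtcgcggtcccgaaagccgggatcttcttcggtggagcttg
Adgrg1, chr8:94976859-94977158, plus strand: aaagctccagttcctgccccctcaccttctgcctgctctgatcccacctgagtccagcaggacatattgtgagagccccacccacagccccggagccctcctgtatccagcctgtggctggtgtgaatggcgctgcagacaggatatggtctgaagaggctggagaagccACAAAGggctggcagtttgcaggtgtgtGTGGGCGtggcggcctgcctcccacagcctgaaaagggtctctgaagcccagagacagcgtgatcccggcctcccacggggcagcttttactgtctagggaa
Adgrb2, chr4:129984620-129984919, plus strand: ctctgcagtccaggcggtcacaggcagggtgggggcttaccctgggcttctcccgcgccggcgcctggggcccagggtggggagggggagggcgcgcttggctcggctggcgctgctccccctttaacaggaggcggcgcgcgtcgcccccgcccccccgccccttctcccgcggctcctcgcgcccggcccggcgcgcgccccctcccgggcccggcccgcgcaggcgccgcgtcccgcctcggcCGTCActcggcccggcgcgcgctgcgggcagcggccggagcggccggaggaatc
Celsr2, chr3:108415530-108415829, minus strand: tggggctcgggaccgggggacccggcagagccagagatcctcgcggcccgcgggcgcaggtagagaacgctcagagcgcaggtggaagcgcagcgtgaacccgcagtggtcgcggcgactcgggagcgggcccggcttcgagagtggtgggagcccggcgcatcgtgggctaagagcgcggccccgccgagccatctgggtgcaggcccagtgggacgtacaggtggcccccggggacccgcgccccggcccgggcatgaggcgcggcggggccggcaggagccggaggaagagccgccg
The Adgrg6 window held 1 TGACG, at base 242, and had a GC content of 69.0% with 38 CpG. The Adgrg1 window held 1 ACAAAG at base 171 and 1 GTGGGCG at base 199, and had a GC content of 60.7% with 7 CpG. Adgrg1 had a further window, not printed, with 1 TGACG. The Adgrb2 window held 1 TGACG, read on the other strand as CGTCA, at base 247, and had a GC content of 81.7%. The Celsr2 window held none of these letters. Over all 32851 windows of the same length, ACAAAG was present in 18.7%, GTGGGCG in 7.97%, TGACG in 20.8%, TATAAA in 13.6% and the full element TGACGTCA, which overlaps TGACG, in 1.79%. Among the 26 member windows the counts were 4, 3, 7, 2 and 0 in the same order. Member windows had a median GC content of 59.0% and a median of 11 CpG, and all windows 52.7% and 7. A match is a description of the letters only.

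All 30 members were listed with counts, and their levels per length spanned a wide range. A level per length is the CPM divided by the length of the union of a gene's exons in kilobases (RPKM). Adgrg1 was the highest member in allSC, at 17.02 ± 1.76 RPKM (SD, n = 4), and in mSC, at 19.2 ± 3.96. In nmSC, Adgrg6 was the highest at 14.9 ± 2.502 and Adgrg1 the next at 12.03 ± 2.99. Adgrg6 was at 12.2 ± 0.833 in allSC and at 8.89 ± 2.41 in mSC. Celsr2 and Adgre5 took ranks 3 and 4, with 5.39 and 5.18 RPKM in allSC, 7.001 and 3.39 in mSC, and 4.62 and 6.29 in nmSC, where their order was turned. These levels depend on the length used. With the length of the longest transcript, Adgrg1 and Adgrg6 were at 25.5 and 23.0 RPKM in allSC, 28.7 and 16.7 in mSC and 18.0 and 28.1 in nmSC, in the same order in each gate. Adgre5 (6.49) then stood before Celsr2 (5.85) in allSC, and in nmSC Celsr2 (5.02) took rank 5 behind Adgrl3 (6.06). The summed level of the family was 56.2 ± 1.47 RPKM in allSC, 49.6 ± 6.45 in mSC and 60.2 ± 6.76 in nmSC, and the mSC libraries (40.3 to 54.1) overlapped the nmSC libraries (53.4 to 69.0). Of that sum, Adgrg1 made up 30.2% in allSC, 38.4% in mSC and 19.7% in nmSC, and Adgrg6 21.8%, 17.8% and 24.7%.

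To tell a low level from one that any gene can show, members were set against 1410 protein-coding olfactory and vomeronasal receptor genes, which work in sensory neurons of the nose. The 95th percentile of these genes was 0.656 RPKM in allSC, 0.514 in mSC and 0.739 in nmSC. In at least 1 gate, 13 members were above it: Adgrg1, Adgrg6, Celsr1, Celsr2, Celsr3, Adgrb2, Adgrb3, Adgrl1, Adgrl2, Adgrl3, Adgra2, Adgra3 and Adgre5. The remaining 17 members were at or under it in every gate, with means from 0.0759 to 0.660 RPKM. The receptor genes pooled were themselves lower in mSC, at 0.207 RPKM compared with 0.333 in nmSC, a difference of −0.67 on the log2 scale, and this value stands beside every result on the 17 low members.

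**Figure D1:**
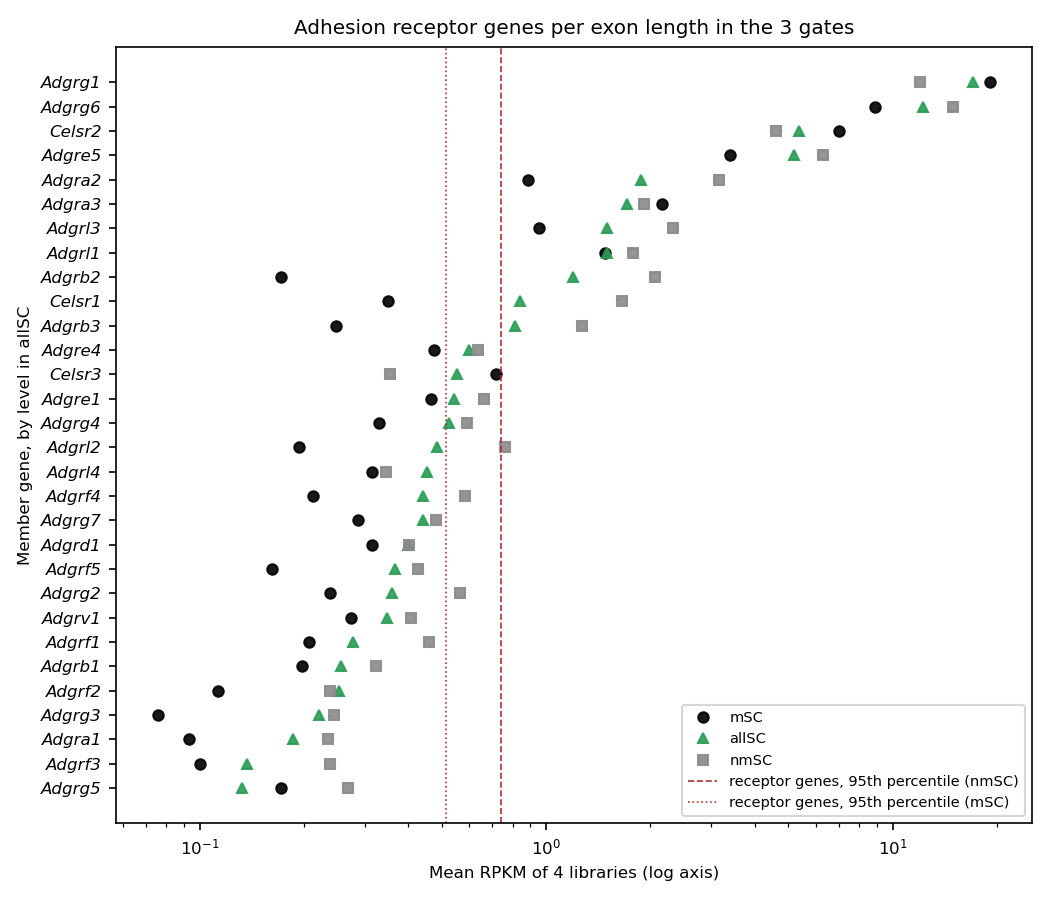
Mean level per exon length (RPKM of 4 libraries, log axis) of the 30 members in the mSC, allSC and nmSC gates, ordered by their level in allSC, with the 95th percentile of 1410 olfactory and vomeronasal receptor genes in mSC and nmSC as lines. Adgrg1, Adgrg6, Celsr2 and Adgre5 lie to the right of both lines in all gates, while the mSC symbols of Adgrb2, Adgrb3 and Celsr1 lie to the left of both.

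The comparison of mSC with nmSC asks which aGPCR transcripts differ between fractions enriched for myelinating and for not-myelinating SCs. Of 28 members that passed the filter on low counts, 16 (57.1%) had an adjusted p under 0.05 in the quasi-likelihood test of edgeR, adjusted by Benjamini-Hochberg over all 18597 tested genes, compared with 40.5% of all tested genes. The 3 members higher in mSC were Celsr3, Adgrg1 and Celsr2, compared with 20.4% of all tested genes called in that direction. The 13 members lower in mSC were Adgrb2, Adgrb3, Celsr1, Adgrl2, Adgra2, Adgrg3, Adgrf4, Adgrf5, Adgra1, Adgrl3, Adgrf1, Adgre5 and Adgrg6, compared with 20.1% of all tested genes. The median log2 fold change of the tested members was −0.86, and that of all tested genes −0.16. Split by level, the 13 members above the receptor genes held 3 higher, 8 lower and 2 without a call, while the 15 tested members at or under them held 0 higher, 5 lower and 10 without a call. A member had to pass that level in 1 gate only, and Celsr3 did so in mSC alone and Adgrl2 in nmSC alone. The level and the direction of a call are thus not independent, and the split only describes these members. Adgrf3 and Adgrg5 did not pass the filter.

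**Figure D2:**
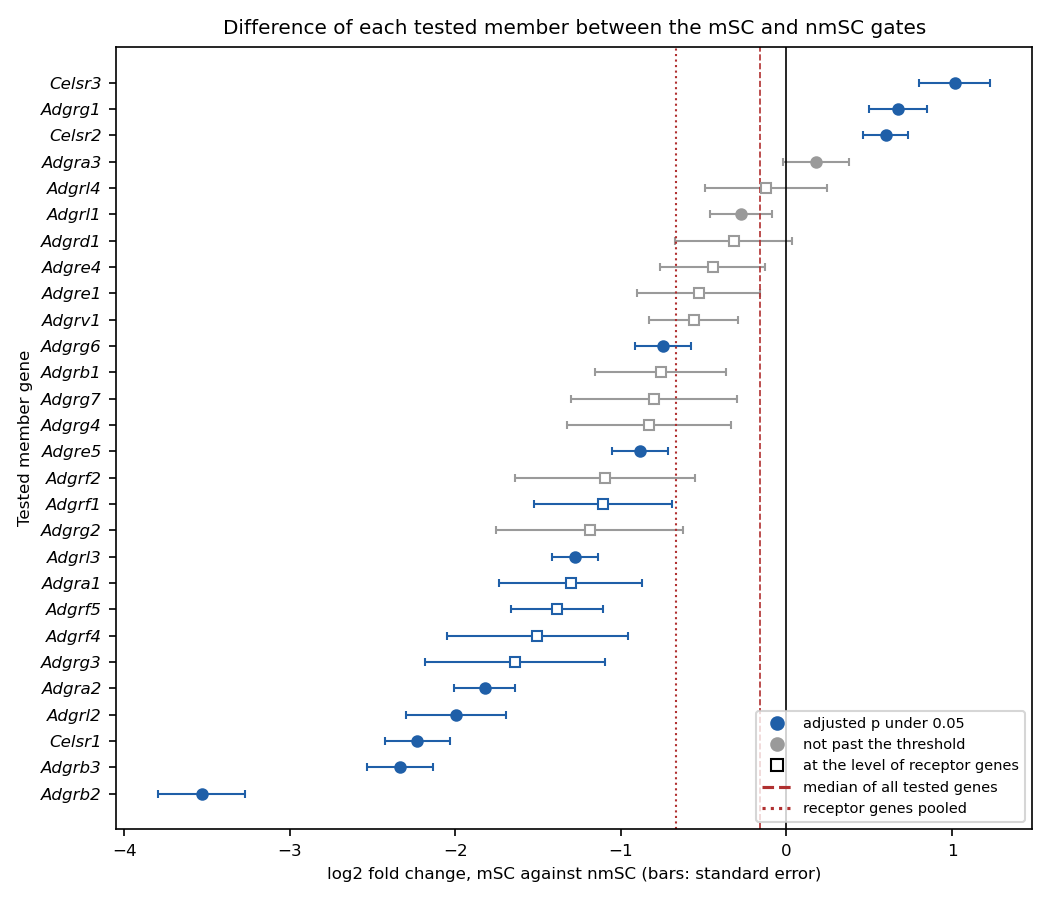
log2 fold change of mSC against nmSC for each of the 28 tested members, with bars of 1 standard error, circles for members above the level of receptor genes and open squares for those at or under it. The values run from −3.53 (Adgrb2) to 1.02 (Celsr3), with the median of all tested genes at −0.16 and the pooled receptor genes at −0.67 drawn as lines.

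Adgrg6 (ENSMUSG00000039116, chr10:14402583-14545659 on GRCm38, minus strand) was lower in mSC. Its levels in mSC were 146, 111, 102 and 75.2 CPM in mice 1 to 4. In nmSC they were 153, 160, 201 and 216 CPM, and in allSC 147, 139, 164 and 148. All mSC libraries lay under all nmSC libraries, and the mSC library was the lower in 4 of 4 mice, though mSC of mouse 1 came close to nmSC of the same mouse. The fold change was 1.68, or −0.75 ± 0.168 on the log2 scale (SE, adjusted p = 0.00155). Without the 3 libraries of mouse 4, it was −0.49 (adjusted p = 0.0120). Against allSC, the values were −0.46 for mSC (adjusted p = 0.0666) and 0.29 for nmSC (adjusted p = 0.351), and neither passed the threshold. Without the mSC library of mouse 1, the difference of mSC from allSC was −0.62 (adjusted p = 0.00764). Its exons share 441 bases, 3.61% of their length, with a gene on the other strand (Gm46212), and as the strand setting of the counting is not stated, reads on these bases cannot be assigned to 1 of the genes.

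Adgrg1 (Gpr56, ENSMUSG00000031785, chr8:94974751-95014217, plus strand), which binds collagen III and transglutaminase 2 and couples to G12/13, differed in the other direction. Its levels were 102, 109, 128 and 76.2 CPM in mSC and 47.7, 61.6, 86.8 and 64.7 CPM in nmSC, with 95.8, 90.6, 80.0 and 103 CPM in allSC. The mSC library was the higher in 4 of 4 mice, but the lowest mSC library, that of mouse 4, lay under the highest nmSC library. The fold change was 1.59, or 0.67 ± 0.175 on the log2 scale (SE, adjusted p = 0.00488). When libraries were scaled by their total counts alone, it was 0.13 (adjusted p = 0.529), and the call was lost.

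Because the scaling of libraries moved the level of all genes together, the ratio of counts within a library was also taken for 5 pairs of members, chosen after the data were seen. The ratio of Adgrg6 to Adgrg1 was 1.43, 1.02, 0.798 and 0.987 in the mSC libraries of mice 1 to 4 and 3.22, 2.597, 2.32 and 3.34 in the nmSC libraries. In allSC it was 1.54, 1.54, 2.04 and 1.45. The gates did not overlap, with allSC between the others. As the pairs were chosen for their values, no test is given. The ratios of Celsr1 to Celsr2, Adgrb2 to Adgrb3 and Adgrl3 to Adgrl1 were also lower in mSC, each in 4 of 4 mice, while the ratio of Celsr3 to Celsr2 overlapped between mSC and nmSC.

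**Figure D3:**
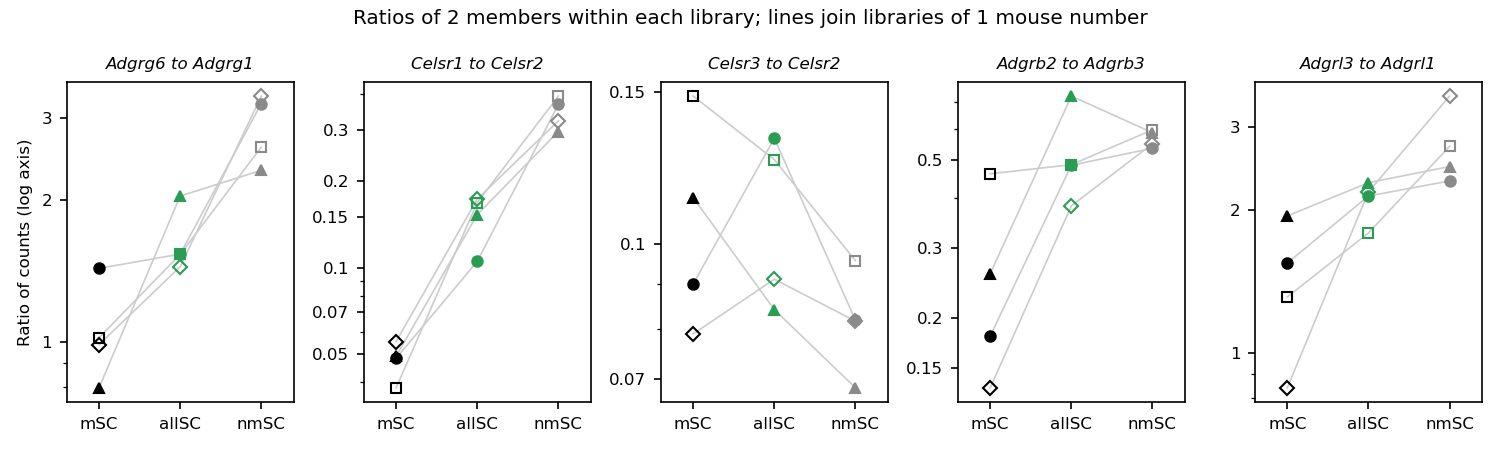
Ratio of the counts of 2 members within each library (log axis) in the mSC, allSC and nmSC gates, 1 panel per pair, with lines joining libraries of the same mouse number. The ratio of Adgrg6 to Adgrg1 runs from 0.798 to 1.43 in mSC and from 2.32 to 3.34 in nmSC, and that of Celsr3 to Celsr2 overlaps between the gates.

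The 3 Celsr genes, homologues of the fly cadherin Flamingo that set planar cell polarity, did not move in 1 direction. Celsr2 (ENSMUSG00000068740, chr3:108390851-108415552, minus strand) was at 89.7, 74.9, 83.5 and 74.3 CPM in mSC and at 52.8, 44.3, 65.5 and 50.1 CPM in nmSC, and in allSC at 63.6, 54.4, 64.9 and 65.0. No mSC library reached down to the nmSC libraries, and the fold change was 1.52, or 0.60 ± 0.136 (SE, adjusted p = 0.00164). Celsr3 was at 8.07, 11.1, 9.46 and 5.86 CPM in mSC and at 4.32, 4.25, 4.48 and 4.08 CPM in nmSC, again without overlap, with 8.44, 6.82, 5.46 and 5.93 CPM in allSC. It was 2.02-fold higher in mSC, or 1.02 ± 0.215 (SE, adjusted p = 8.71e-04), and was above the receptor genes per length in mSC alone among the gates. With scaling by total counts alone, Celsr2 gave 0.045 (adjusted p = 0.776) and Celsr3 0.46 (adjusted p = 0.0800). With the 50 genes with the most counts left out of the totals, Celsr2 gave 0.24 (adjusted p = 0.1235) and Celsr3 0.66 (adjusted p = 0.0197). Celsr1 differed the other way. Its levels were 4.34, 2.86, 4.11 and 4.11 CPM in mSC and 19.5, 17.5, 19.5 and 16.2 CPM in nmSC, with 6.69, 9.16, 9.93 and 11.3 CPM in allSC, and no pair of gates overlapped. It was 4.69-fold lower in mSC than in nmSC, or −2.23 ± 0.195 (SE, adjusted p = 2.03e-08).

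The B subfamily, named after brain angiogenesis inhibitors and known from synapses, where Adgrb3 binds C1q-like proteins, held the largest differences. Adgrb2 (ENSMUSG00000028782, chr4:129984870-130022633, plus strand) was at 1.22, 1.56, 1.16 and 0.499 CPM in mSC, where 4 to 18 reads stood behind each value. It was at 11.7, 13.8, 15.3 and 12.8 CPM in nmSC and at 8.22, 6.09, 10.3 and 6.43 CPM in allSC, so that the gates were fully separate. The fold change was 11.6, or −3.53 ± 0.263 (SE, adjusted p = 2.04e-09). Adgrb3 was at 6.78, 3.39, 4.50 and 3.74 CPM in mSC, 21.9, 23.1, 26.1 and 23.4 CPM in nmSC, and 16.9, 12.5, 14.2 and 16.8 CPM in allSC. It was 5.05-fold lower in mSC, or −2.34 ± 0.200 (SE, adjusted p = 1.51e-08), also with no overlap. Adgrb1, an engulfment receptor for phosphatidylserine, was at the level of receptor genes and gave −0.76 (adjusted p = 0.129).

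Of the latrophilins (L subfamily), which bind teneurins and FLRT proteins, 2 of 4 were lower in mSC. Adgrl3 was at 18.5, 16.5, 18.7 and 14.0 CPM in mSC and at 40.7, 35.7, 42.6 and 45.6 CPM in nmSC, with allSC between them at 29.7, 27.8, 25.3 and 23.9. The fold change was 2.43, or −1.28 ± 0.140 (SE, adjusted p = 4.47e-07). Adgrl2 was at 2.44, 3.65, 1.319 and 3.61 CPM in mSC, 6.53, 15.1, 8.66 and 12.8 CPM in nmSC, and 7.34, 8.23, 6.002 and 5.93 CPM in allSC. Its nmSC libraries varied more than those of Adgrl3 but did not overlap mSC, and it was 3.99-fold lower in mSC, or −1.996 ± 0.300 (SE, adjusted p = 2.52e-05). Adgrl1 was at 11.9, 12.6, 9.62 and 16.6 CPM in mSC, 17.7, 13.1, 17.2 and 13.1 CPM in nmSC, and 13.9, 15.5, 11.1 and 11.0 CPM in allSC. These ranges overlapped, and the value of −0.28 ± 0.188 did not pass (adjusted p = 0.244). Adgrl4, a marker of endothelial cells, was at the level of receptor genes and gave −0.12 (adjusted p = 0.810).

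In the A subfamily, Adgra2 (Gpr124), which with Reck forms a receptor complex for Wnt7 in brain endothelium, was at 4.75, 4.95, 6.67 and 4.11 CPM in mSC. It was at 19.5, 15.2, 21.3 and 17.1 CPM in nmSC and at 9.74, 10.2, 12.5 and 11.0 CPM in allSC, with no overlap of any pair of gates. The fold change was 3.54, or −1.82 ± 0.183 (SE, adjusted p = 1.39e-07). Adgra3 was at 20.8, 20.1, 17.5 and 11.8 CPM in mSC, 12.7, 11.9, 18.8 and 18.8 CPM in nmSC, and 12.4, 13.9, 12.3 and 16.99 CPM in allSC. Its mSC libraries were higher than the nmSC libraries in mice 1 and 2 and lower in mice 3 and 4, and the value was 0.18 ± 0.199 (SE, adjusted p = 0.479). Adgra1 was at the level of receptor genes.

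Adgre5 (CD97), a receptor of leukocytes and other cells that binds CD55, was at 13.8, 12.8, 14.6 and 9.85 CPM in mSC and at 18.7, 24.0, 30.0 and 21.8 CPM in nmSC. In allSC it was at 21.4, 17.1, 20.1 and 19.3 CPM. The mSC and nmSC libraries did not overlap, and it was 1.85-fold lower in mSC, or −0.89 ± 0.168 (SE, adjusted p = 3.12e-04). Its exons share 895 bases, 23.8% of their length, with Ddx39 on the other strand, which was itself at 69.4 CPM in mSC and 90.5 in nmSC. The part of these shared bases in the values of Adgre5 was not tested. Adgre1, which encodes the macrophage protein F4/80, and Adgre4 were at the level of receptor genes and gave −0.53 (adjusted p = 0.259) and −0.45 (adjusted p = 0.265). The 8 markers of macrophages and other immune cells summed to 15.6 to 25.1 CPM in mSC and 22.3 to 31.9 CPM in nmSC, with Aif1 at 0 in every mSC library.

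**Figure D4:**
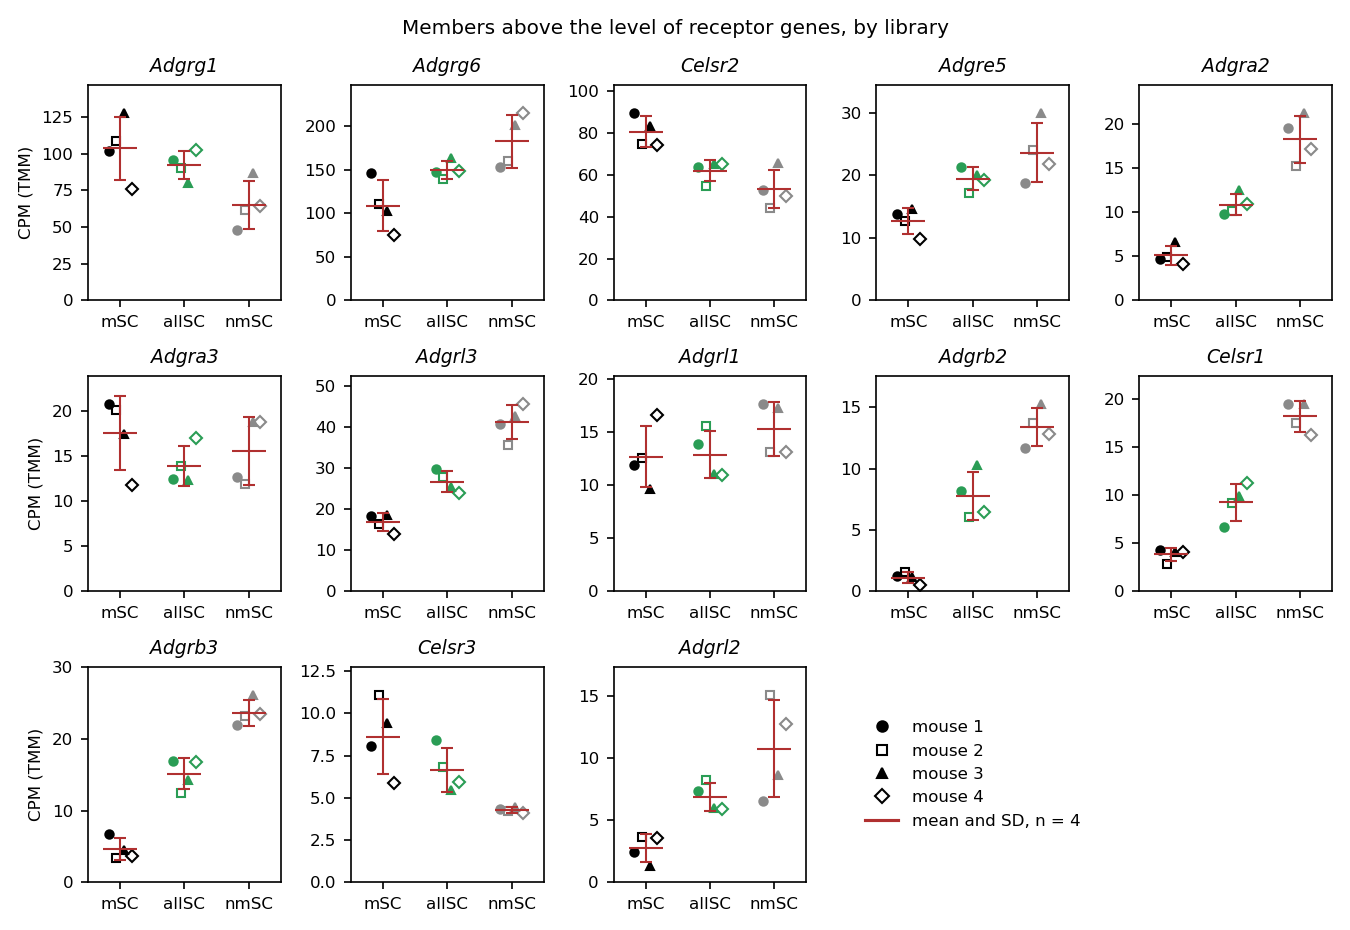
TMM-normalised CPM in each library (symbols by mouse number) of the 13 members above the level of receptor genes, with the mean and SD of 4 libraries per gate in red and axes that start at 0. mSC lies under nmSC without overlap for Adgrg6, Adgre5, Adgra2, Adgrl3, Adgrb2, Celsr1, Adgrb3 and Adgrl2, and above it for Celsr2 and Celsr3. The share of all tested genes without overlap was not counted, and 40.5% of them were called between mSC and nmSC.

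Of the 17 members at or under the receptor genes, 2 had a mean of 5 CPM or more in a gate through their long exons. Adgrv1, the very large receptor of Usher syndrome, was at 11.3, 5.30, 4.11 and 6.61 CPM in mSC, 11.999, 10.6, 9.33 and 8.69 in nmSC, and 6.04, 10.2, 11.1 and 7.14 in allSC. Adgrg4 was at 5.09, 3.04, 0.931 and 3.86 CPM in mSC, 7.49, 9.85, 3.96 and 1.98 in nmSC, and 9.16, 4.35, 5.23 and 1.91 in allSC. Both overlapped between mSC and nmSC, with −0.56 (adjusted p = 0.101) and −0.83 (adjusted p = 0.185). Without the mSC library of mouse 1, which was the highest of its gate, Adgrv1 gave −0.93 (adjusted p = 0.00415). The calls among the low members were those of Adgrg3 (−1.64), Adgrf4 (−1.50), Adgrf5 (−1.38), Adgra1 (−1.30) and Adgrf1 (−1.11), of which Adgrf5 kept its call when any 1 library was left out. The other 4 lost theirs when single mSC or nmSC libraries were left out, with adjusted p up to 0.0640 for Adgrg3, 0.104 for Adgrf4, 0.0684 for Adgra1 and 0.125 for Adgrf1. With the mouse number as a block, Adgrg2 also had an adjusted p of 0.00824, at −1.20, compared with 0.0992 without the block. Adgrd1 gave −0.32, Adgrf2 −1.10 and Adgrg7 −0.80, all without a call. Adgrl4 and Adgrf5 are known from endothelium, and the 6 endothelial markers summed to 50.1 to 72.5 CPM in mSC and 15.8 to 23.6 CPM in nmSC. That sum was led by Egfl7 and Kdr, while Cdh5 was at a mean of 0.427 CPM in mSC and 1.03 in nmSC. The part of other cell types in the low members was not tested.

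Low and high members were also next to each other in the genome. Adgrg5, Adgrg1 and Adgrg3 follow each other on chromosome 8 with gaps of 31470 and 3474 bases, and their levels in allSC were 0.133, 17.02 and 0.221 RPKM. Adgrf4, Adgrf2, Adgrf1 and Adgrf5 follow each other on chromosome 17, and all 4 were at or under the receptor genes in every gate.

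The comparisons with allSC ask where each fraction stands against the unfractionated SCs. They use the same 4 allSC libraries and are therefore not independent of each other. Against allSC, 8 members (28.6%) were lower in mSC, compared with 8.8% of all tested genes, and 0 were higher, compared with 8.76%, with 17.6% of all tested genes called in either direction. The 8 were Adgrb2 (−2.75), Adgrb3 (−1.69), Adgrl2 (−1.35), Celsr1 (−1.25), Adgrf5 (−1.17), Adgra2 (−1.07), Adgrl3 (−0.65) and Adgre5 (−0.60). In nmSC, 5 members (17.9%) were higher than in allSC, compared with 2.82% of all tested genes, and 0 were lower, compared with 7.55%, with 10.4% called in either direction. The 5 were Celsr1 (0.98), Adgrb2 (0.79), Adgra2 (0.75), Adgrb3 (0.65) and Adgrl3 (0.62). Single libraries left out ended the call of Adgre5 in the first of these comparisons (adjusted p up to 0.0589) and those of Adgrb2 and Adgrb3 in the second (up to 0.0927 and 0.111). The counts of 0 come from the edgeR test, in which, at an unadjusted p under 0.05, 1 member (Celsr2) was higher in mSC and 2 (Adgrg1 and Celsr3) were lower in nmSC. The Wald test of DESeq2 called 1 member in each of these directions, Celsr2 and Celsr3. The mean of allSC lay between those of mSC and nmSC for 25 of the 28 tested members (89.3%), compared with 69.5% of all tested genes.

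The lists of ligands, partners and signalling genes that work with aGPCRs held 113 genes, of which 106 were tested. Between mSC and nmSC, 27 were higher and 34 lower in mSC (57.5%), beside 40.5% of all tested genes, with a median log2 fold change of −0.23. The lists were chosen with earlier results of these data known, so these counts describe the lists only. Each list held calls in both directions. Beside the counts of each list and group below stand the 20.4% of all tested genes called higher in mSC and the 20.1% called lower.

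Of 39 tested ligands and cell-surface partners, 8 were higher in mSC and 13 lower. For Adgrg6, the ligand gene Col4a2 was higher in mSC, at 684 ± 164 CPM compared with 455 ± 89.3 in nmSC (SD, n = 4), or 0.59 (adjusted p = 0.00904). Its collagen IV partner Col4a1 gave 0.31 (adjusted p = 0.252), with 947, 947, 981 and 376 CPM in the mSC libraries of mice 1 to 4 and 577, 594, 838 and 612 in nmSC. Without the mSC library of mouse 4, Col4a1 was at 0.55 (adjusted p = 6.30e-04). The laminin-211 chains Lama2 (−0.24), Lamb1 (−0.050) and Lamc1 (−0.19) and the prion protein gene Prnp (0.25) had no call. Lamb1 was abundant in both gates, at 2176 and 2252 CPM. Of the 2 ligands named for Adgrg1, transglutaminase 2 (Tgm2) was at 6.44, 6.25, 6.67 and 6.11 CPM in mSC. In nmSC it was at 3.46, 3.40, 3.73 and 2.63 CPM, without overlap, and it is named after its values were seen. Col3a1, for the collagen III ligand of Adgrg1, was at 875 ± 316 CPM in mSC and 7850 ± 1755 in nmSC, or −3.16 (adjusted p = 1.53e-09), while Adgrg1 itself was higher in mSC. Col1a1 and Col1a2, collagens of the fibroblast-like marker list, were lower in mSC as well, at 786 compared with 3420 CPM and 1819 compared with 3763 CPM, while the other 5 markers of that list had no call. Of these, Dcn was at 12.8 CPM in mSC and 8.48 in nmSC, and Pdgfra at 2.34 and 2.35. The 7 markers summed to 1647 to 3086 CPM in mSC and 6676 to 8709 CPM in nmSC, and their part in the difference of Col3a1 was not tested. Cd55, for the ligand of Adgre5, was at 46.5, 39.7, 39.9 and 33.4 CPM in mSC and at 2.21, 5.52, 4.70 and 3.10 CPM in nmSC. It was thus 10.2-fold higher in the gate in which Adgre5 was lower (3.36 ± 0.225, adjusted p = 4.89e-10). Cd9, a tetraspanin that associates with aGPCRs, was at 7155 CPM in mSC and 801 in nmSC (3.16). Of 5 planar polarity genes in the list, which work with the Celsr genes, Fzd3 (1.50) and Vangl1 (1.03) were higher in mSC, Vangl2 (−0.71) and Ptk7 (−0.96) were lower and Fzd6 (−1.08) had no call, the last 3 being named after their values were seen. Tenm3, a teneurin ligand of latrophilins, was lower (−1.49).

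In the Gs and cAMP list, through which Adgrg6 acts, 8 of 28 tested genes were higher in mSC and 11 lower. The list holds 5 genes for phosphodiesterases, enzymes that break down cAMP, and not that whole gene family. All 5 were lower in mSC, among them Pde4b (−3.10), Pde4d (−2.69), Pde8a (−2.41) and Pde7b (−1.55). They were grouped after their values were seen, so the count describes these 5 genes only, beside 20.1% of all tested genes called lower in mSC. Pde4b was at 9.02, 9.81, 6.52 and 8.97 CPM in mSC and at 73.0, 74.5, 73.4 and 73.6 CPM in nmSC, an 8.59-fold difference with little spread in nmSC. Of 9 adenylyl cyclase genes, which make cAMP, 2 were higher in mSC, with Adcy1 (1.55) among them, 5 were lower and 2 had no call. The CREB coactivator gene Crtc3 (1.09) was higher in mSC.

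In the G12/13 list, through which Adgrg1 acts, 3 of 11 tested genes were higher and 3 lower. Gna12 (1.18), Rhob (0.77) and Rhoa (0.73) were higher in mSC, and the exchange factor genes Arhgef25 (−2.90), Arhgef1 (−0.41) and Arhgef11 (−0.35) lower. The calls of Arhgef1 and Arhgef11 were lost when single libraries were left out, with adjusted p up to 0.0818 and 0.104. In the Gi and Gq list, 5 of 12 were higher and 2 lower. Among those with a mean of 10 CPM or more were the phospholipase genes Plcb1 (2.98) and Plcb3 (−0.87) and the G protein genes Gnai1 (1.52), Gna11 (0.83) and Gnaq (0.49), of which Gnaq had an adjusted p of 0.0591 without the nmSC library of mouse 3. Plcb2, at 0.873 CPM in mSC and 5.84 in nmSC and named after its values were seen, was lower (−2.65). In the list of scaffolds and arrestins, 3 of 16 were higher and 5 lower, among them Magi2 (2.31), Elmo1 (1.09), an engulfment adaptor that works with Adgrb1, and Baiap2 (0.63) as higher, and Arrb1 (−1.11) and Magi1 (−0.57) as lower.

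**Figure D5:**
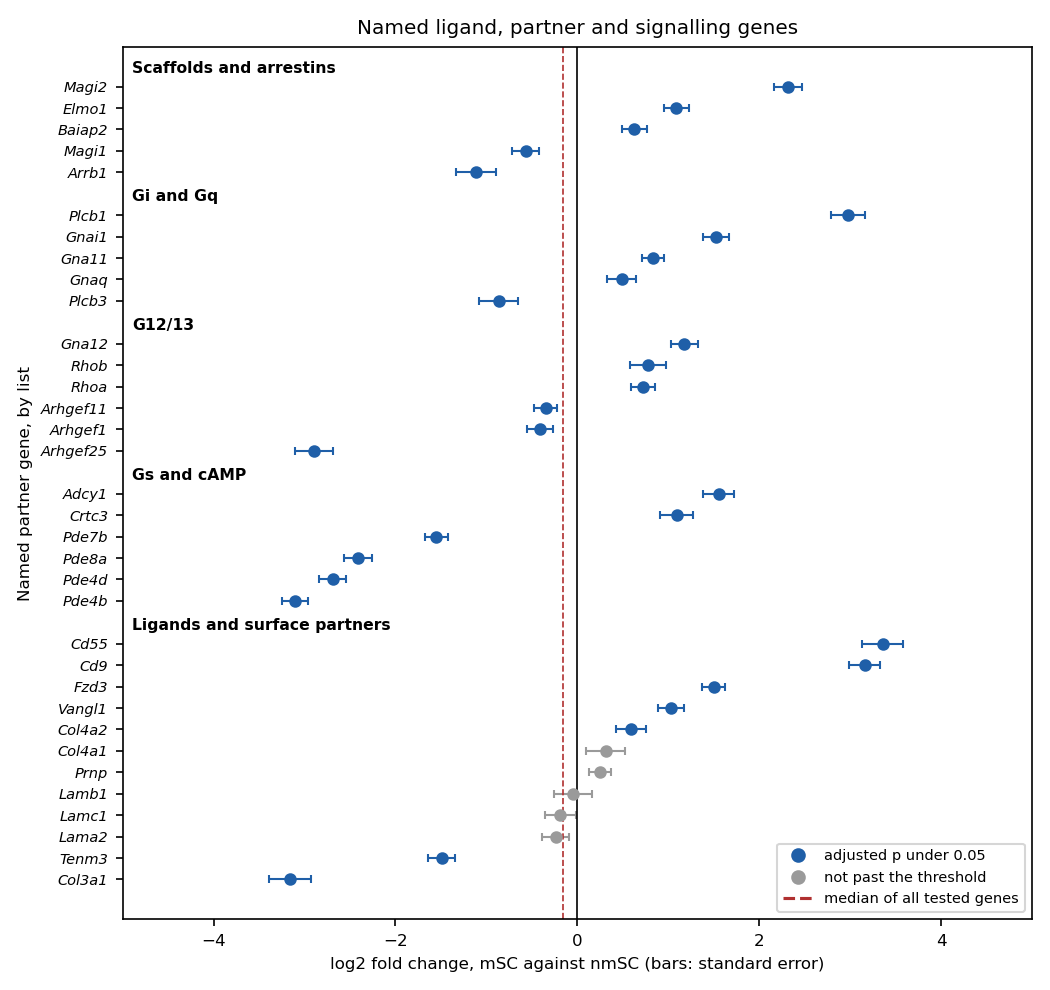
log2 fold change of mSC against nmSC, with bars of 1 standard error, for the ligand, partner and signalling genes named by rule in 5 lists, with the median of all tested genes as a dashed line. Cd55 (3.36), Cd9 (3.16) and Plcb1 (2.98) lie farthest to the right, and Col3a1 (−3.16), Pde4b (−3.10) and Arhgef25 (−2.90) farthest to the left.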

How the data were processed

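RNA of sorted SCs from P5 sciatic nerves was measured in 12 Smart-Seq2 libraries, 4 per gate. The authors aligned reads with STAR 2.6.1c, counted them per gene with featureCounts and deposited raw counts. The labels name GRCm38.p5, whereas the methods name a human build. Settings for strand and overlapping genes are not given in the sources used here. Gene positions and exon lengths came from GENCODE M21 (GRCm38), which matched 25664 of 25700 identifiers.

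From the deposited counts, libraries were scaled by TMM and compared in 1 model over 12 libraries by the quasi-likelihood test of edgeR 4.0.16 (R 4.3.3) after its expression filter by gate, with Benjamini-Hochberg adjustment over all tested genes and a threshold of 0.05. Single members were also compared by two-sided exact permutation tests of log2(CPM + 1). Steps were tested on simulated data in which few genes changed, equally in both directions. That setting cannot test the scaling of gates that differ in many genes. Members and lists were chosen with earlier results of these data known. Every member is named; named partners are the Adgrg6 ligand genes, whatever their values, and up to 6 called genes per list with a mean of 10 CPM or more and the largest differences. Values per library are given for members with a mean of 5 CPM or more in a gate. The labels give each library a subject number, taken as the mouse, and each suspension came from 1 mouse, so same-numbered libraries are paired; their deviations from the gate means correlated between −0.226 and 0.246. No libraries of a gate were duplicates (chi-square per degree of freedom of 4.03 or more). Sex, which the labels do not give, was not used. Alternatives were other scalings, DESeq2 1.42.0, other filters, 2-gate models, the mouse as a block and leaving out libraries. PCR copies are not independent molecules, and a gene under 3 counts (0.177 to 0.367 CPM) cannot be told from absent.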

Additional observations from a re-analysis of the deposited data

Results flagged for a closer look

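Within the 4 libraries of a gate, the highest or the lowest value of a member lay far from the others, by Dixon's criterion, in 6 of 90 groups, and chance gives about 1 in 20. Celsr2 in the allSC library of mouse 2 (54.4 CPM) and Celsr1 in the mSC library of mouse 2 (2.86 CPM) lay under the others. Above the others lay Adgrb1 in mSC of mouse 4 (2.24 CPM), Adgrf1 in mSC of mouse 1 (1.49 CPM), Adgrg3 in allSC of mouse 3 (3.46 CPM) and Adgrl4 in nmSC of mouse 1 (2.21 CPM), all 4 of them members at the level of receptor genes. Celsr1 kept its call between mSC and nmSC when any 1 library was left out, at −2.28 to −2.10.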

How the results depend on the processing

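TMM factors were 0.744 to 0.871 in mSC and 1.16 to 1.27 in nmSC, so the scaling of libraries moved all genes together. With scaling by total counts alone, the median of all tested genes moved from −0.16 to −0.73, 0 members were higher in mSC than in nmSC and 23 lower, the partners were 14 higher and 69 lower, and 8 members were higher in nmSC than in allSC. Without the 50 genes with the most counts in the totals, the median was −0.53, with 1 member, Celsr3, higher, and the partners were 17 higher and 57 lower. Under these scalings Adgra3 turned to −0.36 and −0.16 and Adgrg1 against allSC in mSC to −0.12 and −0.030, and under the first Celsr2 against allSC in nmSC turned to 0.034. Relative to that median, which such a scaling moves along with the members, Adgrg6 was at −0.59 to −0.56 and Adgrg1 at 0.83 to 0.85 over 4 scalings. With DESeq2's size factors and with its Wald test, 1 member, Celsr2, was higher in mSC than in allSC. Lower in nmSC than in allSC were 1 member by the Wald test and 2 in a model of these gates alone. Leaving out 1 library gave 0 to 1 members higher in mSC than in allSC, 0 to 1 lower in nmSC than in allSC, and 3 to 5 higher in nmSC than in allSC, with 3 without allSC of mouse 2, nmSC of mouse 2 or nmSC of mouse 3, where Adgrb2 and Adgrb3 lost their calls. Adgrl4 ranged from −0.38 to 0.076, and turned to 0.076, 0.073 and 0.063 without nmSC of mouse 1, mSC of mouse 2 or mSC of mouse 3. Adgrg6 kept its call between mSC and nmSC under every edgeR and DESeq2 alternative run (−1.29 to −0.49), and leaving out 1 library gave −0.91 to −0.60. Leaving out the mSC library of mouse 4 gave −0.60 for Adgrg6 and 0.80 for Adgrg1, with 3 members higher and 11 lower. Without the 3 libraries of mouse 4, an alternative chosen after seeing the data, 2 members were higher in mSC than in allSC. With the mouse as a replicate block, 3 members were higher and 14 lower in mSC than in nmSC, and 7170 in place of 7540 genes were called. The block added the call of Adgrg2 and changed no other call of a member. Leaving out 1 library added calls of Adgrv1 and Adgrg6 (against allSC) without mSC of mouse 1, of Adgrb1 without nmSC of mouse 1, of Adgrg2 and Adgrg1 (nmSC against allSC) without nmSC of mouse 3, and of Celsr2 (mSC against allSC) without mSC of mouse 4. Exact permutation tests of single members cannot go under 0.0286 with 4 against 4 libraries, or under 0.125 with the signs of 4 pairs. Between mSC and nmSC, 13 of 28 tested members had this p of 0.0286, which was 0.0615 after adjustment over the tested members. No member was thus under 0.05 after adjustment in the permutation test. Adgrg1, Adgrf1 and Adgrf4, called by edgeR, had a permutation p of 0.0571. The causes of these moves were not tested, beyond the scaling itself.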

Other observations

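Adgrg2, an X-linked member at the level of receptor genes, differed between mice in every gate. The libraries of mice 1 to 4 gave 3.35, 2.41, 0.616 and 1.21 CPM in allSC, 1.90, 1.91, 0.465 and 0.748 CPM in mSC, and 4.70, 4.08, 0.672 and 2.44 CPM in nmSC, so that mouse 3 was the lowest in all 3 gates. These are low values, the difference was not tested, and members with the same mouse lowest in every gate were not counted. Part of its length, 137 exon bases, is shared with a gene on the other strand (Gm15241).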
